A study of Mus musculus with 12 samples.

Results

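Organoids grown from crypts of mouse ileum, jejunum and duodenum were compared with one another to describe which regional differences in gene expression were present in culture. They are 3 of the 12 poly(A) RNA libraries of the series, chosen by their labels, with 1 library per origin. Organoids are epithelial cultures that grow from crypts, here sampled after 12 weeks. The other libraries are freshly isolated crypts, with 2 libraries per origin, and freshly isolated villi, with 1 library per origin, from the same 3 parts of the intestine. The labels give no strain, genotype, sex or age of the mice, and no number of cultures or animals behind a library. With 1 organoid library per origin, an organoid difference has no replicate check, and a difference between origins cannot be told apart from a difference between cultures.

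The small intestine changes along its length. The duodenum receives gastric acid and takes up iron, the jejunum digests and absorbs most nutrients, and the ileum recovers bile acids and is rich in Paneth cells, which secrete antimicrobial peptides at the base of the crypt. Intestinal stem cells give rise to absorptive enterocytes, Paneth cells, mucus-secreting goblet cells and hormone-secreting enteroendocrine cells, and the hormones made differ between the proximal and the distal intestine.

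Expression was given as RPKM, which scales reads to exon length and to library size, and differences are of log2(RPKM + 1), which understates the change of genes with low RPKM. Whole read numbers were recovered from these values, and the implied totals were 13781355 reads for ileal, 18591819 for jejunal and 10829828 for duodenal organoids. The transcripts listed held 81.3%, 64.4% and 79.0% of them in the same order. Folds are ratios of RPKM with an exact 95% interval of the read ratio, which covers counting error only. Where an origin had 0 reads, the fold was computed with 3 reads set in that library and is written as at least that value. This leaves out the counting error of the other library, so the exact interval can reach lower. For the gene Akp3 the nearer end of that interval is 53.5-fold, where 66.6-fold is given below.

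Of the 4 genes that mark the ends of the small intestine here, Osr2 and Fgf15 were higher in ileal than in duodenal organoids and Onecut2 and Adh1 were lower. Jejunal organoids lay between the ends for each of them. Osr2 (chr15:35225866-35233059 of mm9, plus strand), a zinc-finger transcription factor, had 40.1 RPKM in ileal, 25.2 in jejunal and 0.054 in duodenal organoids, the last from 1 read. That is 742-fold higher in ileal than in duodenal organoids, with an interval from 133 to 29300. Ileal crypts held 58.4 and 135 RPKM of the same gene, against 11.7 and 12.8 RPKM in duodenal crypts.

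Fgf15 (chr7:152082436-152086855, plus strand), the hormone that the ileum releases in response to bile acids, had 28.9 RPKM in ileal, 6.13 in jejunal and 2.76 in duodenal organoids. It was 10.5-fold higher in ileal than in duodenal organoids (interval 7.93 to 14.1). Onecut2 (chr18:64500017-64558141, plus strand), a transcription factor of the proximal intestine, had 1.39 RPKM in ileal, 6.73 in jejunal and 9.91 in duodenal organoids and was 7.14-fold lower in ileal than in duodenal organoids (interval 6.25 to 8.19). Adh1 (chr3:137940608-137953654, plus strand), an alcohol dehydrogenase that also oxidises retinol, had 312 RPKM in ileal, 873 in jejunal and 2930 in duodenal organoids, 9.39-fold lower in ileal than in duodenal organoids (interval 9.14 to 9.66). In bulk RNA, fewer cells of a type and less RNA per cell cannot be told apart.

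**Figure D1:**
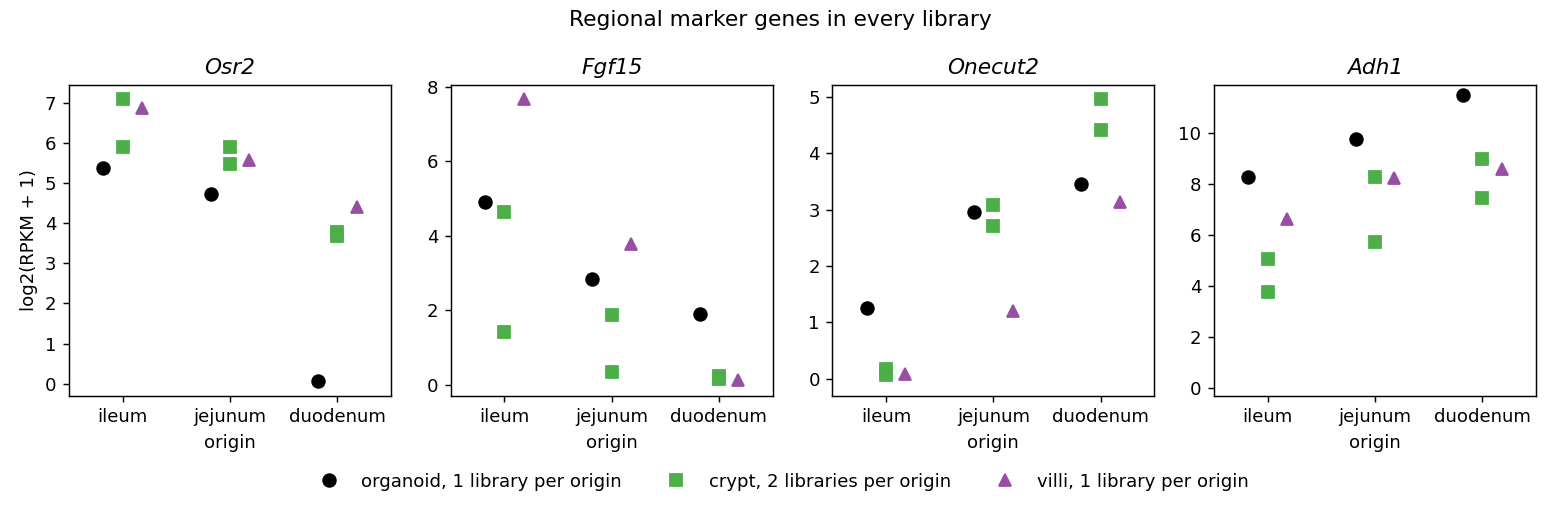
The 4 marker genes as log2(RPKM + 1) in every library, by origin, with organoids as circles, crypts as squares and villi as triangles. In organoids Osr2 and Fgf15 step down from ileum to duodenum and Onecut2 and Adh1 step up, and the duodenal organoid library has 0.054 RPKM of Osr2 where duodenal crypts have 11.7 and 12.8.

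Across all genes, 11265 had at least 30 reads over the 3 organoid libraries and were assessed. A difference of at least 2 on the log2 scale, which is 4-fold, was counted. Between ileal and duodenal organoids 40 genes were higher by that size and 40 were lower, 0.355% of the genes assessed in each direction. With a pseudocount of 0.1 in place of 1 the counts were 148 and 78. The median difference over all genes was 0.07. The read ratio of each of the 80 genes had an interval whose nearer end was above 2-fold, and for 36 of the higher and 38 of the lower genes it was above 4-fold. The higher genes had between 40 and 140428 reads over the 3 libraries and the lower genes between 63 and 102885. On the higher side the count ends between Tmigd1 at 2.01 and 1700016C15Rik at 1.97, and on the lower side between Sst at −2.08 and Gm766 at −1.99.

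Jejunal organoids had a value at or between the other two for 38 of the 40 higher genes and for 28 of the 40 lower genes. Over all genes assessed this order held for 22.0%, although a wide gap between the ends leaves more room for a value between them. In both directions jejunal organoids were more often nearer to the end with the lower value. Adding 1 to RPKM narrows gaps between low values, and the part of that in these counts was not tested. The shares over all genes were not counted. Jejunal organoids were nearer to duodenal ones for 25 of the higher genes and nearer to ileal ones for 15. For the lower genes they were nearer to ileal organoids in 34 and nearer to duodenal ones in 6. The jejunal and the ileal differences share the duodenal library. No gene of the jejunal organoids was at least 2 above both other origins or at least 2 below both. By at least 1, jejunal organoids stood above both for 82 genes and below both for 81.

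**Figure D2:**
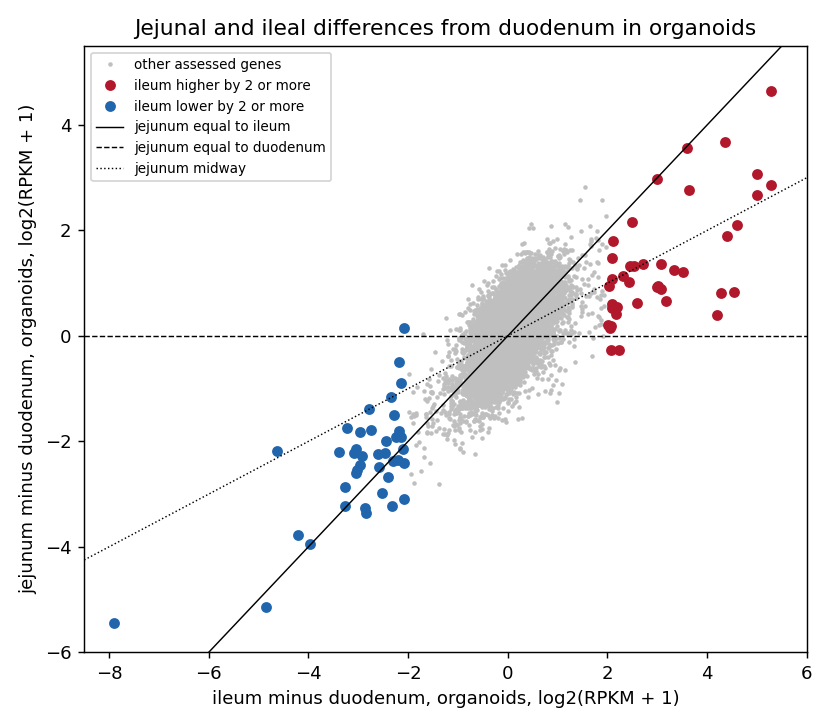
Difference of jejunal from duodenal organoids against difference of ileal from duodenal organoids, both of log2(RPKM + 1), for the 11265 genes assessed. Of the 40 genes lower in ileal organoids (blue), 34 lie nearer to the solid line where jejunum equals ileum, and of the 40 higher genes (red) 25 lie nearer to the dashed line where jejunum equals duodenum.

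The highest differences with jejunum in order were led by Nts and Osr2. Nts, the gut peptide neurotensin, had 166 RPKM in ileal, 30.2 in jejunal and 3.29 in duodenal organoids and was 50.4-fold higher in ileal than in duodenal organoids (interval 37.2 to 70.1). Tfpi, an inhibitor of blood coagulation, followed with 47.1 RPKM in ileal, 8.58 in jejunal and 0.495 in duodenal organoids. Naaladl1, a brush border peptidase, had 22.2 RPKM in ileal, 13.5 in jejunal and 0.124 in duodenal organoids and was 179-fold higher in ileal than in duodenal organoids (interval 61.1 to 871). Naaladl1 and Osr2 were similar in being present at both distal origins and nearly absent at the duodenal one. Bex1 showed another pattern, with 38.7 RPKM in ileal, 1.86 in jejunal and 1.17 in duodenal organoids. Serpina1b, a serine protease inhibitor of the alpha-1 antitrypsin family, was likewise high at one origin alone, with 26.9 RPKM in ileal, 1.13 in jejunal and 0.194 in duodenal organoids. Members of that family are near-identical in sequence, so reads could be assigned to the wrong member.

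The lowest differences were led by Reg1, a secreted lectin of the regenerating family. It had 38.9 RPKM in ileal, 219 in jejunal and 9600 in duodenal organoids, 247-fold lower in ileal than in duodenal organoids (interval 224 to 273). Dmbt1, a secreted scavenger receptor protein of mucosal surfaces, had 8.03 RPKM in ileal, 48.5 in jejunal and 224 in duodenal organoids, 27.9-fold lower in ileal than in duodenal organoids (interval 25.8 to 30.1). Akp3, an intestinal alkaline phosphatase, had no read in ileal organoids, 1 in jejunal and 157 in duodenal organoids, and was at least 66.6-fold lower in ileal than in duodenal organoids. Its neighbour Alpi, the main intestinal alkaline phosphatase, had 7.24 RPKM in ileal, 10.7 in jejunal and 63 in duodenal organoids. Both are genes of the enterocyte brush border, and both were low in ileal and jejunal cultures alike. The 12 lowest also held Adh1, 1190003M12Rik and 7 genes with between 9.64 and 28.9 RPKM in duodenal organoids, which were Vpreb3, Wfdc15b, Anxa10, Cyp2c70, Ucn3, 2610524H06Rik and BC026782 (now Cfhr2). 2210407C18Rik, named after its values were seen, had a difference of −4.86 but was not in order, with 11.1 RPKM in ileal, 8.91 in jejunal and 350 in duodenal organoids.

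**Figure D3:**
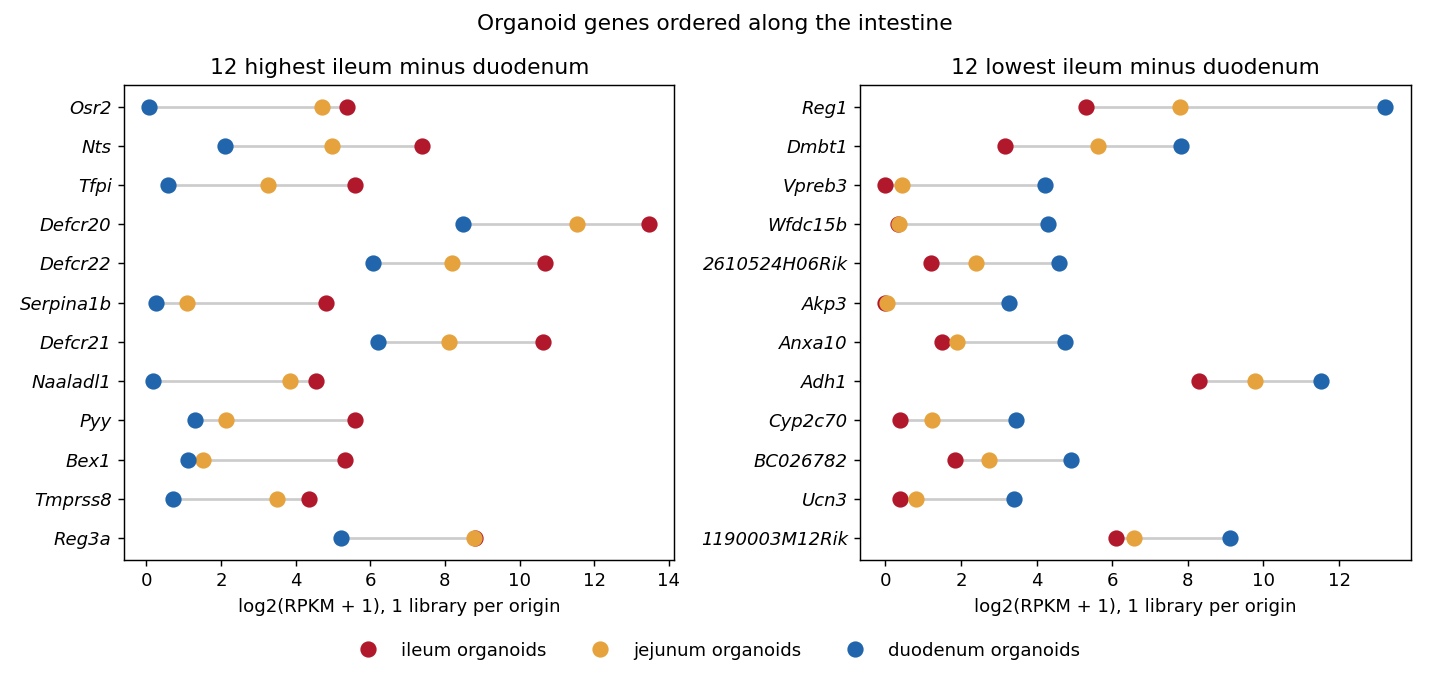
The 12 highest and 12 lowest differences between ileal and duodenal organoids among genes with jejunum in order, as log2(RPKM + 1), with 1 circle per library and origin. Osr2, Naaladl1, Tmprss8 (now Prss30) and Reg3a have the jejunal circle near the ileal one, Bex1 and Serpina1b have it near the duodenal one, and most genes on the right have it nearer to the ileal one.

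Promoters of the genes named so far were read for short letters known for intestinal transcription factors. RefSeq promoters of GRCm38.p6, 250 bases before to 50 after a start, were found for 21 of the 26 genes (the 4 markers and the 24 highest and lowest). No entry was matched for Osr2, Fgf15, Onecut2, Naaladl1 and Dmbt1. Letters were searched on both strands, and the motifs searched do not contain one another. The GATA letters AGATAA occurred in 2 of 12 promoters of genes higher in ileal organoids and 3 of 11 of genes lower there, and in 11.2% of all 32851 promoters. The CDX letters TTTATG occurred in 2 of 12 and 1 of 11, and in 11.9% of all. The inverted repeat bound by the bile acid receptor and the HNF1 palindrome occurred in none of them, and in 0.0396% and 0.00913% of all. A match is a description of letters only. The 3 promoters below hold AGATAA, in capitals, and belong to one gene higher in ileal organoids (Nts, chr10:102490369-102490668, minus strand) and to a pair that was lower there (Adh1, chr3:138277335-138277634, plus strand, and 1190003M12Rik, now Gkn3, chr6:87388886-87389185, minus strand). They are shown 5′ to 3′ because the same letters stand before genes that differ in opposite directions.
Nts: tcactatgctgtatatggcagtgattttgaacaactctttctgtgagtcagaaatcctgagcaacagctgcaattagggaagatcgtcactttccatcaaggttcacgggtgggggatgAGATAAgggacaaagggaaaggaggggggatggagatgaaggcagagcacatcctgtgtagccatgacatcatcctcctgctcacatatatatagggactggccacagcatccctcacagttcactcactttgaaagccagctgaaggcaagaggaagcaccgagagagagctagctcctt
Adh1: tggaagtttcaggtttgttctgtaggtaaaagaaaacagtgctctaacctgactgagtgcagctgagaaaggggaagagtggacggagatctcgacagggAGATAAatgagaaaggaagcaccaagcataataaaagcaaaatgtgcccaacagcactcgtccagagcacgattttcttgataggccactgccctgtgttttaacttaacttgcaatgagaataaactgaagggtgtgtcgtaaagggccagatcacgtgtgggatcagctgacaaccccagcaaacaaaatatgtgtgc
1190003M12Rik: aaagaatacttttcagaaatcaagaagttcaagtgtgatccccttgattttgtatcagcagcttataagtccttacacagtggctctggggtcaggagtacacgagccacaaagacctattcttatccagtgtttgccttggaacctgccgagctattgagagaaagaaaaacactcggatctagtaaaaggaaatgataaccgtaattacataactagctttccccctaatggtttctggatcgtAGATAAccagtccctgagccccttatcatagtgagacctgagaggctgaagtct

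Paneth cell genes were higher in ileal organoids as a group. Defcr6 and Defcr24 carry identical values here and were counted once. Of the genes listed, 15 were then assessed, all 15 had a higher RPKM in ileal than in duodenal organoids, and 6 were higher by at least 2, against 0.355% of all genes. The median difference of the list was 1.26, beside 0.07 over all genes, and 11 of the 15 had jejunum in order. Among them were the defensins Defcr20, Defcr22, Defcr21 and Defcr4 (now Defa20, Defa22, Defa21 and Defa4) and Ang4, an antimicrobial ribonuclease. Defcr20 had 11400 RPKM in ileal, 2980 in jejunal and 355 in duodenal organoids, 32.2-fold higher in ileal than in duodenal organoids (interval 30.7 to 33.8). Ang4 had 6020 RPKM in ileal, 2150 in jejunal and 1420 in duodenal organoids. Defcr6 and Defcr24 had 66000 RPKM in ileal, 36700 in jejunal and 35400 in duodenal organoids, and Lyz, the Paneth lysozyme, had 5090 in ileal, 1970 in jejunal and 2720 in duodenal organoids. Defensin copies are nearly identical in sequence, so their reads may be split between copies. The summed RPKM of the whole Paneth list was 115000 in ileal, 55000 in jejunal and 53800 in duodenal organoids, and 3 of its 18 matched genes were at 0 in each. The part of Paneth cell number in the defensin differences was not tested.

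Secreted lectins of the Reg3 group, which bind bacteria, were also higher distally. Reg3a had 448 RPKM in ileal, 439 in jejunal and 36.3 in duodenal organoids, 12.4-fold higher in ileal than in duodenal organoids (interval 11.1 to 13.9). Pap (now Reg3b) had 3630 RPKM in ileal, 2900 in jejunal and 648 in duodenal organoids. Reg3g had 7980 RPKM in ileal, 2990 in jejunal and 1470 in duodenal organoids. With Reg1 and Dmbt1, which ran the other way, 3 of the 15 assessed genes of this antimicrobial list were higher by at least 2 and 2 were lower, and its median was 0.13. The share of all genes assessed was 0.355% in each direction. Guca2a, the peptide guanylin that drives fluid secretion, had 9090 RPKM in ileal, 2180 in jejunal and 1130 in duodenal organoids and was 8.08-fold higher in ileal than in duodenal organoids (interval 7.88 to 8.29).

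Enteroendocrine genes differed in both directions. Of 23 genes assessed, 4 were higher by at least 2 in ileal organoids and 2 were lower, against 0.355% of all genes in each direction. The list median was 0.09. Insl5 among the higher genes passed the minimum of reads only through its ileal reads, and Gast among the lower genes only through its duodenal reads. Both counts can therefore follow in part from that minimum. The 4 higher genes were Nts, Pyy, Gcg and Insl5, hormones of the distal gut. Pyy, peptide YY, had 47.5 RPKM in ileal, 3.35 in jejunal and 1.48 in duodenal organoids, 32.0-fold higher in ileal than in duodenal organoids (interval 16.1 to 74.8). Gcg, which encodes glucagon-like peptides, had 1220 RPKM in ileal, 269 in jejunal and 145 in duodenal organoids, 8.44-fold higher in ileal than in duodenal organoids (interval 8.03 to 8.87). Insl5 rested on 34 reads in ileal, 6 in jejunal and 0 in duodenal organoids and was at least 8.91-fold higher in ileal than in duodenal organoids. Jejunal organoids were in order for each of these hormones, and nearer to the duodenal value for Pyy, Gcg and Insl5.

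The hormones lower in ileal organoids were Gast and Sst. Gast, the acid-stimulating hormone gastrin, had 1.91 RPKM in ileal, 1.18 in jejunal and 20.1 in duodenal organoids, and 10.5-fold less in ileal than in duodenal organoids (interval 5.75 to 21.0). Sst, somatostatin, had 148 RPKM in ileal, 73.2 in jejunal and 629 in duodenal organoids. Neither was in order, since jejunal organoids had the lowest value of both. Ghrl (ghrelin), Gip and Cck (cholecystokinin) are also hormones of the proximal gut and differed by less than 4-fold, in both directions. Ghrl and Gip are named after their values were seen. Ghrl had 113 RPKM in ileal, 155 in jejunal and 324 in duodenal organoids, and Gip had 275 in ileal, 357 in jejunal and 626 in duodenal organoids. Cck ran the other way, with 945 RPKM in ileal, 358 in jejunal and 578 in duodenal organoids. Chga, chromogranin A, which most enteroendocrine cells make, was close between origins and is also named after its values were seen. It had 21.5 RPKM in ileal, 15.1 in jejunal and 20.2 in duodenal organoids. The summed RPKM of the list was 3170 in ileal, 1420 in jejunal and 2580 in duodenal organoids.

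Of 8 bile acid genes assessed, 2 were higher by at least 2 in ileal organoids, against 0.355% of all genes. They were Fgf15 and Ostb (now Slc51b), a subunit of the basolateral bile acid exporter. No gene of the list was lower by 2. Of the 8, 6 had their higher value in ileal and 2 in duodenal organoids. The median was 1.13, beside 0.07 over all genes. Slc10a2, given below, passed the minimum of reads only through its ileal reads. The shared direction and the median can therefore follow in part from that minimum. Ostb had 24.1 RPKM in ileal, 8.82 in jejunal and 2.84 in duodenal organoids, 8.49-fold higher in ileal than in duodenal organoids (interval 5.0 to 15.5). The nuclear bile acid receptor Nr1h4 had 45 RPKM in ileal, 36.1 in jejunal and 24.8 in duodenal organoids. Slc10a2, the apical bile acid transporter, had 38 reads in ileal, 1 in jejunal and 0 in duodenal organoids, at least 9.95-fold higher in ileal than in duodenal organoids. Fabp6, the ileal bile acid binding protein, had 22 reads in ileal, 4 in jejunal and 0 in duodenal organoids and fell under the minimum, while ileal crypts held 1540 and 14600 RPKM of it. Nr1h4, Slc10a2 and Fabp6 are named after their values were seen. Nr0b2, a repressor that the bile acid receptor induces, went the other way, with 0.714 RPKM in ileal, 1.64 in jejunal and 4.46 in duodenal organoids.

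A list of regional genes, most of them transcription factors that pattern the gut, held differences in both directions. Of 12 assessed, 2 were higher by at least 2 in ileal organoids, the transcription factor Osr2 and Bex1, which is not one, and 3 were lower, the transcription factors Pdx1, Onecut2 and Meis2. Over all genes assessed the share was 0.355% in each direction. Osr2 and Onecut2 are among the marker genes above, and the list was chosen with earlier results of these data known. Pdx1 and Meis2 passed the minimum of reads only through their duodenal reads. These counts can therefore follow in part from the choice of genes and from that minimum, and are given as a description only. Pdx1, which specifies pancreas and duodenum, had 0.0564 RPKM in ileal, 0.251 in jejunal and 4.81 in duodenal organoids, from 1, 6 and 67 reads. Meis2, a homeobox gene, had 0.0253 RPKM in ileal, 0.206 in jejunal and 3.54 in duodenal organoids. Gata4, which maintains jejunal identity in mice, had 7.68 RPKM in ileal, 18.2 in jejunal and 19.2 in duodenal organoids, a difference of −1.22. Factors that mark the whole intestine were close: Cdx2 had 43.3 RPKM in ileal, 38.1 in jejunal and 33.9 in duodenal organoids, and Gata6 had 7.47 in ileal, 8.34 in jejunal and 9.54 in duodenal organoids. Gata4, Cdx2 and Gata6 are named after their values were seen.

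Hox genes, which record position along the body axis, were low in the cultures. Of 39 listed, 7 had at least 30 reads over the organoid libraries, and these can only be read as the genes that passed that minimum. None differed by 2 on the scale that adds 1 to RPKM, and all 7 were higher in ileal than in duodenal organoids, with a median difference of 0.99. Hoxb9, Hoxb7 and Hoxb8 passed the minimum through their ileal reads. The shared direction and the median therefore follow in part from the minimum and are given as a description only. Hoxb9 had 89 reads in ileal, 0 in jejunal and 1 in duodenal organoids, 69.9-fold higher in ileal than in duodenal organoids (interval 12.2 to 2790). Hoxb7 had 48 reads in ileal organoids and Hoxb8 had 36, and neither had any in the jejunal or duodenal library. They were at least 12.6-fold and at least 9.43-fold higher in ileal than in duodenal organoids. All 39 Hox genes together summed to 13.1 RPKM in ileal, 2.44 in jejunal and 0.817 in duodenal organoids, and to between 85 and 92.8 RPKM in ileal crypts.

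Genes of the stomach and of Brunner's glands, the mucous glands under the duodenum, were lower in ileal organoids. Of 11 listed, 5 were assessed, 3 of them were lower by at least 2 and none was higher, with a list median of −2.84. The other 6 had fewer than 30 reads, and Pgc, given below, reached 30 only through its duodenal reads. The direction and the median can therefore follow in part from that minimum. Background on the lower side was 0.355%. Gkn3, deposited as 1190003M12Rik and known from gastric mucous neck cells, had 67.1 RPKM in ileal, 94.4 in jejunal and 552 in duodenal organoids, 8.23-fold lower in ileal than in duodenal organoids (interval 7.61 to 8.91). Tff2, a trefoil peptide of gastric mucus, had 5.85 RPKM in ileal, 3.77 in jejunal and 48 in duodenal organoids. Pgc, the protease precursor pepsinogen C, had 0.105 RPKM in ileal, 0.738 in jejunal and 7.41 in duodenal organoids, from 2, 19 and 111 reads. The summed RPKM of the list was 83 in ileal, 111 in jejunal and 622 in duodenal organoids, and between 45.5 and 116 in duodenal crypts. Gkn3 gave most of the sum in each organoid library. Whether duodenal cultures held gastric or glandular cells was not tested.

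In lists of absorption and metabolism few genes differed by at least 2, where 0.355% of all genes did in each direction. Of 15 mature enterocyte genes 3 were lower by at least 2 in ileal organoids, Alpi, Ada and Fabp1, and none was higher, with a list median of −0.01. Fabp1, the liver-type fatty acid binding protein, had 266 RPKM in ileal, 1260 in jejunal and 1130 in duodenal organoids and so was low at one origin alone. Of 20 peptide digestion genes 1 was higher, Naaladl1, and the median was 0.43. Among 7 carbonic anhydrases, which hydrate carbon dioxide, Car4 was higher and Car2 was lower. Car4 had 8 RPKM in ileal, 0.584 in jejunal and no read in duodenal organoids, at least 34.6-fold higher in ileal than in duodenal organoids, and Car2 had 0.568 RPKM in ileal, 1.05 in jejunal and 6.14 in duodenal organoids. Of 11 iron genes 1 was lower, Slc40a1, the iron exporter ferroportin, with 0.58 RPKM in ileal, 0.541 in jejunal and 5.82 in duodenal organoids. Of 35 genes of xenobiotic metabolism none differed by 2, a count near the background, and the median was 0.14. A single gene in the peptide digestion and in the iron list is not read as a result about those lists.

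None of 19 stem cell genes and none of 14 cell cycle genes differed by 1 or more between ileal and duodenal organoids, where 4.39% of all genes assessed did, so these counts are near the background. Their medians were 0.01 and −0.26. Between jejunal and duodenal organoids 1 stem cell gene and 0 cell cycle genes differed by 1 or more, against 11.1% of all genes. Lgr5, the receptor that marks intestinal stem cells, had 22.5 RPKM in ileal, 26 in jejunal and 20.1 in duodenal organoids. Markers of immune, mesenchymal and endothelial cells were scarce. The summed RPKM of 12 immune genes was between 2.38 and 3.82 over the 3 organoid libraries. That of 10 mesenchymal and muscle genes was between 5.35 and 9.3, and that of 6 endothelial and blood genes between 0.168 and 0.237. Vim, a filament protein of mesenchyme, gave most of the second sum, with 4.87 RPKM in ileal, 6.19 in jejunal and 7.77 in duodenal organoids, and Ptprc, the pan-leukocyte antigen, was at 0.115 RPKM or less. At 0 reads were 9, 6 and 11 of the immune genes, 4, 3 and 6 of the mesenchymal and 4, 3 and 5 of the endothelial genes in ileal, jejunal and duodenal organoids in that order. A list of 12 pancreas acinar genes was not low in sum, with 965 RPKM in ileal, 924 in jejunal and 1610 in duodenal organoids. The cells behind that sum were not tested. Vil1, the villin of the epithelial brush border, had 32.5 RPKM in ileal, 44.0 in jejunal and 32.6 in duodenal organoids. Lgr5, Vim, Ptprc and Vil1 are named as markers of their cell types.

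**Figure D4:**
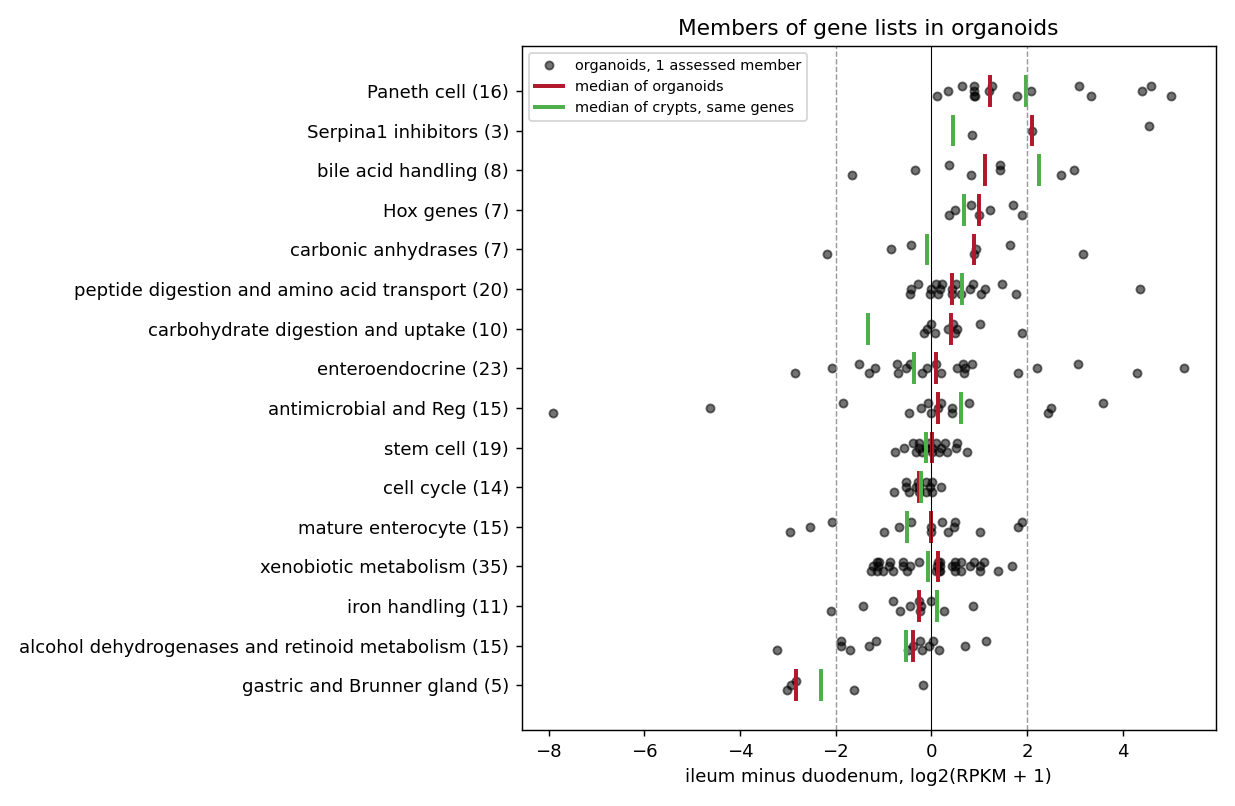
Difference between ileal and duodenal organoids, of log2(RPKM + 1), for each assessed member of 16 gene lists (number assessed in brackets), with the list median in organoids in red and in crypts in green. Dashed lines stand at differences of −2 and 2. Paneth members, with Defcr6 and Defcr24 drawn apart, all lie above 0, gastric members below it and stem cell members within 1 of it, and for carbohydrate genes the medians are 0.40 in organoids and −1.32 in crypts.

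Jejunal organoids had 21 genes higher by at least 2 than duodenal organoids, 0.186% of those assessed, and 42 lower, 0.373%. The median over all genes was 0.16. Scaling by median-of-ratios shifts this comparison by 0.19, and 13 genes were then higher and 59 lower. Slc5a4b, a member of the sodium-glucose transporter family, had 15 RPKM in jejunal and 1.26 in duodenal organoids. Abcc2, an apical export pump for conjugates, had 27.6 RPKM in jejunal and 3.8 in duodenal organoids. Ileal organoids held 5.58 RPKM of Slc5a4b and 12.1 RPKM of Abcc2, so both had their highest value in the jejunal culture. Of the 3 organoid libraries the jejunal one had the smallest share of reads in listed transcripts, 64.4%, and the part of that in these differences was not tested. Between ileal and jejunal organoids 18 genes were higher by at least 2, 0.16%, and 3 were lower, 0.0266%.

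The crypt libraries, which share no library with the organoids, were used to look up the same genes. Of the 40 genes higher in ileal organoids, 36 had at least 60 crypt reads, and for 27 of these (75.0%) both ileal crypt libraries lay above both duodenal ones, against 9.42% of all genes assessed in both. The other 9 comprised 8 whose crypt libraries overlapped and 1 on the opposite side. Of the 40 lower genes, 25 had enough crypt reads, and for 17 of these (68.0%) both ileal crypt libraries lay below both duodenal ones, against 12.0% of all genes, with none on the opposite side. The other 15 lower genes, Anxa10, Cyp2c70 and Gast among them, had fewer than 60 reads over 6 crypt libraries. Among those with enough crypt reads the median crypt difference was 2.59 for the higher and −1.95 for the lower genes, beside −0.03 over all genes. The median organoid differences of the 40 higher and the 40 lower genes, which chose them, were 2.85 and −2.67.

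Magnitudes differed gene by gene between the sources. Defcr20 had 27700 and 9050 RPKM in ileal crypts against 294 and 53.7 in duodenal crypts, a difference of 6.96 where organoids had 5.01. Reg1 had 3.63 and 7.85 RPKM in ileal crypts against 37 and 1010 in duodenal crypts, a difference of −4.93 where organoids had −7.91. Gcg, 8.44-fold higher in ileal than in duodenal organoids, had 13.7 and 46.1 RPKM in ileal crypts and 25.7 and 14.0 in duodenal crypts, which overlap. By limma on the 6 crypt libraries, 3 genes of ileal crypts exceeded duodenal ones (0.0279% of 10769) and 1 was lower (0.00929%) at an adjusted p under 0.05, and 428 had an unadjusted p under 0.05. The 3 were Hoxb9, Hoxb6 and Hoxb8, with adjusted p-values of 0.0219, 0.0219 and 0.0265, and the lower gene was Onecut2, with 0.0219. Hoxb6 is named after its values were seen. These 4 calls became 0 without either duodenal crypt library, without jejunal replicate 2 or without ileal replicate 2, and without ileal replicate 1 there were 6 higher and 0 lower calls. Onecut2 had 0.125 and 0.0509 RPKM in ileal crypts against 30.3 and 20.3 in duodenal crypts. It was the only one of the 61 organoid genes with enough crypt reads that passed in this fit, which leaves out the replicate numbers. A test of whether the ileal-duodenal difference of organoids differs from that of crypts, by limma with the lone organoid libraries assumed to vary like crypts, called 0 of 11112 genes at an adjusted p under 0.05 and had 150 with an unadjusted p under 0.05. With no filter on reads it called 135. With 1 organoid library per origin, neither count shows whether organoids and crypts differ.

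**Figure D5:**
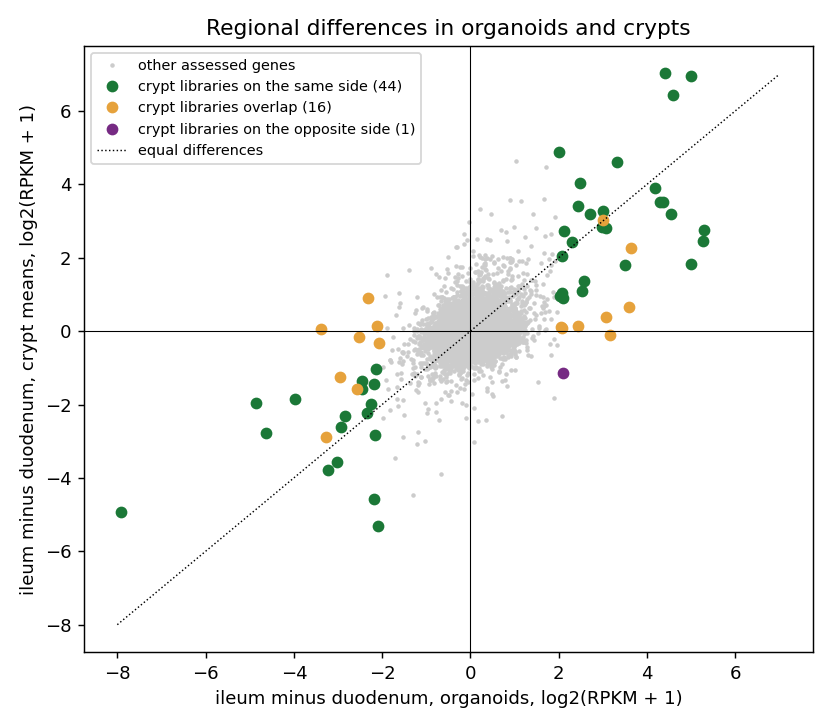
Difference between ileum and duodenum, of log2(RPKM + 1), in crypt means (vertical, 2 libraries per origin) against organoids (horizontal, 1 library per origin) for 10478 genes. Of the 61 genes past 2 in organoids, 44 had crypt libraries on the same side (green), 16 overlapped (orange) and 1 was opposite (purple).

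Villi gave a second set of values with 1 library per origin. All 40 genes higher in ileal organoids were higher in ileal than in duodenal villi, where 71.8% of all genes assessed were higher and the median over all genes was 0.23. Of the 40 lower genes, 25 were lower in ileal villi, where 27.6% of all genes were. Dmbt1 was one that was not, with 15.5 RPKM in ileal, 16.3 in jejunal and 5.93 in duodenal villi. For the genes that separated jejunal from duodenal organoids, both jejunal crypt libraries lay on the same side of both duodenal ones in 6 of 20 higher genes (30%, against 4.69% of all) and in 10 of 28 lower genes (35.7%, against 12.9%). By limma, jejunal against duodenal crypts gave 0 calls among 10769 genes at an adjusted p under 0.05 (0.0%), and 109 genes had an unadjusted p under 0.05.

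Genes that separated ileal from duodenal crypts were looked up in organoids. Both ileal crypt libraries lay above both duodenal ones with a mean difference of at least 2 for 57 genes, 0.544% of those assessed in organoids too, and 20 of them were also at least 2 higher in ileal organoids. Of all genes assessed in organoids, 0.355% were at least 2 higher in ileal organoids and 0.355% at least 2 lower. In organoids 17 of the 57 lay within 0.5 of no difference and 7 had the opposite sign. The shares of all genes within 0.5 or of either sign were not counted. Such counts, here and for the lower genes, are therefore not read as many or few. The median over the 57 was 1.43 in organoids and 2.77 in crypts. On the lower side there were 26 such genes, 0.248%, of which 10 were at least 2 lower in ileal organoids, 4 lay within 0.5 and 3 had the opposite sign, with medians of −1.41 in organoids and −2.77 in crypts. These genes were chosen by their crypt values, so the crypt medians describe the choice. Another 10 higher and 2 lower crypt genes had too few organoid reads to be assessed.

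The 5 largest crypt differences per direction that lay near 0 or had the other sign in organoids were Mep1a, Dfna5h (now Gsdme), Nbl1, S100a6 and Ceacam10, higher in ileal crypts, and Slc2a2, Ugt2a3, Cck, Sphk1 and Khk, lower there. Mep1a, a brush border metalloprotease, had 18.7 RPKM in ileal, 18.4 in jejunal and 15.8 in duodenal organoids, against 24.4 and 234 RPKM in ileal and 3.31 and 12.5 in duodenal crypts. S100a6, a calcium-binding protein, had 664 RPKM in ileal, 315 in jejunal and 736 in duodenal organoids, against 55 and 526 in ileal and 20.6 and 33.6 in duodenal crypts. Slc2a2, the basolateral glucose transporter, had 13.1 RPKM in ileal, 19.6 in jejunal and 12.4 in duodenal organoids, against 0.0907 and 0.79 in ileal and 1.39 and 53.8 in duodenal crypts. Khk, the fructose-metabolising ketohexokinase, had 403 RPKM in ileal, 378 in jejunal and 429 in duodenal organoids, against 46 and 134 in ileal and 232 and 436 in duodenal crypts. Cck, higher in ileal than in duodenal organoids as given above, had 7.65 and 13.2 RPKM in ileal and 70.7 and 41.9 in duodenal crypts. The crypt libraries of one origin differed among themselves in RNA of enterocyte genes. The summed RPKM of the mature enterocyte list lay between 1050 and 12900 in ileal and between 812 and 8750 in duodenal crypts. The part of enterocyte number in these values was not tested. In organoids that sum was 2870 in ileal, 5070 in jejunal and 3400 in duodenal cultures.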

How the data were processed

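Poly(A) RNA of 12 libraries was sequenced on SOLiD 4 in 50-bp reads (labels' protocols) and aligned with BWA to mm9, per the submitters' processing notes. No source used here gives versions, gene models or the counting rule, strand included. The authors deposited RPKM per transcript, per the file headers. The longest of a symbol's transcripts was kept (19012 symbols from 21247 transcripts). Whole reads were recovered from RPKM within 0.02 of a read for at least 99.967% of values.

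Members and the 36 gene lists were chosen with earlier results of these data known. Named genes were the 4 markers, the 12 highest and 12 lowest ordered differences, up to 4 list members with the largest differences, and 5 crypt differences per direction not seen in organoids. Ang4, Lyz, Defcr6, Defcr24, Reg3g, Meis2, Sst, Insl5 and Slc5a4b fall outside this rule and were named after their values were seen, as were genes so marked in the text. No test was run among organoids. Crypts were fitted with limma 3.58.1 (R 4.3.3) with a trend on log2(RPKM + 1), two-sided, adjusted by Benjamini-Hochberg. The fit was also run on simulated counts. Their spread was smaller than that between crypt replicates for genes such as Reg1, so that run does not check the p-values given here. The labels do not say that crypt replicates are separate animals, so p-values measure only the spread between these samples. Alternatives were the pseudocount, the minimum of reads, the scaling, the transcript, each crypt library left out and the replicate number as a block. Coordinates of genes are as deposited for mm9, and whether the first base counts as 0 or 1 is not stated.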

Additional observations from a re-analysis of the deposited data

Results flagged for a closer look

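Cyp2e1, a cytochrome P450 that oxidises ethanol, was singled out because its libraries moved in opposite directions in organoids and crypts. It was 2.1 higher on the log2(RPKM + 1) scale in ileal than in duodenal organoids, with 13.5 RPKM in ileal, 6.2 in jejunal and 2.39 in duodenal organoids. In crypts the difference was −1.15, with 2.32 and 0.505 RPKM in ileal and 5.25 and 2.93 RPKM in duodenal libraries. The difference between organoids and crypts did not pass limma's interaction test (adjusted p = 1.0, unadjusted p = 0.0135). That test reads the values that singled the gene out and rests on 1 organoid library per origin, so it is given as a description.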

How the results depend on the processing

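With a pseudocount of 0.1 the counts past 2 rose to 226 for ileum against duodenum, 260 for jejunum against duodenum and 106 for ileum against jejunum in organoids, the genes followed into crypts to 88 of 140, and crypt ileum against duodenum gave 1 limma call. With no filter on reads the crypt ileum against duodenum comparison gave 0 calls and the difference between organoids and crypts gave 135. Other minimums, the scaling and the transcript choice kept the total organoid counts within 1.5 times, but with median-of-ratios scaling the genes higher in jejunal than in duodenal organoids were 13 in place of 21. Leaving out each crypt library in turn gave between 0 and 6 calls for crypt ileum against duodenum, 0 for crypt jejunum against duodenum, 0 for the difference between organoids and crypts, and between 44 and 51 of 61 genes followed into crypts, a count that cannot fall when a library is left out. No named gene changed sign under another pseudocount or transcript. Median-of-ratios scaling lowers the difference between ileal and duodenal organoids by about 0.1. That is enough to turn the sign of a named gene with near-equal values, such as Slc2a2.

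With the replicate number as a block, crypt ileum against duodenum gave 37 calls, crypt jejunum against duodenum 3 and the difference between organoids and crypts 0. Of the organoid genes, 10 of 36 higher and 5 of 25 lower ones then passed in crypts, against 0 and 1 without the block. The labels do not say what a number shares. The differences of replicate 2 from replicate 1 correlated across 10769 genes between ileum and jejunum (0.795), ileum and duodenum (0.502), and jejunum and duodenum (0.42). Organoids have 1 library per origin, so no paired analysis was possible because they carry no replicate numbers. Depth limits genes with few reads: 1 read in a 2-kb transcript is worth between 0.0269 and 0.0462 RPKM in organoids.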
